A study of Homo sapiens with 12 samples.

Results

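A set of 10 genes of glutathione and thioredoxin metabolism was followed across every library of the series. They are SLC7A11, GCLC, GCLM, GSS, GSR, GPX2, GPX4, TXNRD1, SRXN1 and NQO1. They were chosen by name, as members of the antioxidant programme that the transcription factor NRF2 is known to drive. The choice was made with earlier results of these data known, so shares of members called are descriptive. All 10 of 10 were present among the 55773 gene entries of the count table. All 10 also passed the filter on low counts, which left 15691 genes for testing.

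The cells were RBE, an established human cholangiocarcinoma line with mutant IDH1, the enzyme form that makes the metabolite 2-hydroxyglutarate (2-HG). AG-120 (ivosidenib) is an inhibitor of mutant IDH1, and Nutlin is an inhibitor of MDM2, the ubiquitin ligase that holds p53 down. The question behind the series was how 2-HG alters the gene expression that p53 directs. In the AG120_Nutlin group, cells had 22 days of 5 µM AG-120 and then 72 hours of 5 µM Nutlin. The vehicle_Nutlin group had DMSO in place of AG-120, then 72 hours of 5 µM Nutlin. The AG120 group had 22 days of 5 µM AG-120 and DMSO in place of Nutlin, and the vehicle group had DMSO throughout. Each group held 3 libraries, for 12 in all, and all 4 groups came from a single cell line. Whether the replicates were separate cultures is not given in the sources used here, so p-values measure the spread between these libraries, which may be technical.

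Glutathione is the main small thiol antioxidant of the cell. SLC7A11 is the light chain of the cystine/glutamate antiporter, which brings in cystine, the oxidised form of the amino acid that limits glutathione synthesis. GCLC and GCLM, the catalytic and modifier subunits of glutamate-cysteine ligase, carry out the first and rate-limiting step, and GSS, glutathione synthetase, the step after it. The glutathione peroxidases GPX2 and GPX4 spend glutathione on peroxides, and GSR, glutathione reductase, restores it with NADPH. TXNRD1, the cytosolic thioredoxin reductase, keeps thioredoxin reduced, SRXN1 (sulfiredoxin) repairs overoxidised peroxiredoxins, and NQO1 reduces quinones. NRF2 is held in the cytoplasm by KEAP1 and degraded until oxidants or electrophiles stop this, and it then binds antioxidant response elements with a small MAF partner.

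The core of that element, TGACNNNGC, was looked for on both strands of the promoter windows that RefSeq gives for GRCh38.p14, each from 250 bases before to 50 bases after a gene's start. Such windows were at hand for 7 of the 10 members, and SLC7A11, GSS and GSR had none. The core was found in 4 of 10 windows, belonging to 3 of the 7 members (GCLM, GPX2 and TXNRD1). For reference, 4687 of 35116 windows (13.3%) hold it. The first 250 bases of 6 windows are printed 5′ to 3′ along the gene's strand, with matches in capitals. GCLM, GPX2 and TXNRD1 are shown for their matches, and GCLC and NQO1 because these genes carry the AG-120 results. The GCLM window was chr1:93909431-93909680 (minus strand), with 1 match 34 bases before the start; the GPX2 window was chr14:64942746-64942995 (minus strand), with 1 match 122 bases before it. TXNRD1 has a pair of start sites, with windows at chr12:104215529-104215778 and chr12:104286782-104287031 (plus strand). The first holds matches at 99 and 8 bases before the start, the second of which runs 1 base past the printed end; the other window holds 1 match 102 bases before the start. GCLC (chr6:53545102-53545351, minus strand) and NQO1 (chr16:69726561-69726810, minus strand) held none.
GCLM: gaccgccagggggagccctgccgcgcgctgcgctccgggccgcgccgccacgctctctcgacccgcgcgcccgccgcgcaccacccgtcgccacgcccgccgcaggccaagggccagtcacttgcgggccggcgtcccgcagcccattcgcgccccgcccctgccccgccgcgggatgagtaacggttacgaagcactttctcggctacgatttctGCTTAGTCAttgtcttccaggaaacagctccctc
GPX2: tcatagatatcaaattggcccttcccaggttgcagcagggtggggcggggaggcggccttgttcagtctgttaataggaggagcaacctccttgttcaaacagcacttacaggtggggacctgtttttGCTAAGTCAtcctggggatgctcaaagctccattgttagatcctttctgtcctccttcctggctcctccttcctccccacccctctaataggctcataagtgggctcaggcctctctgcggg
TXNRD1 window 1: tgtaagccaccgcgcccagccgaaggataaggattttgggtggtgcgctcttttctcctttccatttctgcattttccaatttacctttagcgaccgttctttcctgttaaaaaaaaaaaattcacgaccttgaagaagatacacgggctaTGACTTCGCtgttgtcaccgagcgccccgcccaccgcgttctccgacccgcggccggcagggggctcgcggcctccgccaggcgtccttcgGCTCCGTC
TXNRD1 window 2: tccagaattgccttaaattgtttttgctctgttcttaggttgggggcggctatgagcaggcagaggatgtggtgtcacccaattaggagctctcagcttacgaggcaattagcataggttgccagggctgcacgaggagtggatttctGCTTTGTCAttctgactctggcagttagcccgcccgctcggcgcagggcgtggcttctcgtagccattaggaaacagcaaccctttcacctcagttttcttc
GCLC: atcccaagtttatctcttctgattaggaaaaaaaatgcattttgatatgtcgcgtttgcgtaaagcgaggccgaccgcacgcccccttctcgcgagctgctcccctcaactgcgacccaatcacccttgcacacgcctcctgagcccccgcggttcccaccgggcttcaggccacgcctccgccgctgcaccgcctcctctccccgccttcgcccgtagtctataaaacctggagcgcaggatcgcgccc
NQO1: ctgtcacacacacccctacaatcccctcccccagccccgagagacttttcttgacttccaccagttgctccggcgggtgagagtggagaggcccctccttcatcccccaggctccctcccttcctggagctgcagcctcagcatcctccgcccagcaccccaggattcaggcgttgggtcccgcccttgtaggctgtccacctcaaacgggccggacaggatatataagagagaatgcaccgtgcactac
A match is a description of these letters and not a binding site, and a window without one says nothing of elements farther away. The related AP-1 motif TGACTCA was found in no member's window, against 4.95% of all windows; a sequence can hold both motifs where they overlap.

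Library totals ran from 16840161 to 27499433 counts. MDM2 and CDKN1A, p53 targets used as a check of the Nutlin label, stood high in every Nutlin library. MDM2 averaged 3343 ± 16.0 CPM (counts per 1e6 reads) in AG120_Nutlin and 2847 ± 694 CPM in vehicle_Nutlin, against 163 ± 26.5 CPM in AG120 and 146 ± 6.97 CPM in vehicle (mean ± SD, n = 3 each). CDKN1A averaged 10227 ± 167 CPM in AG120_Nutlin and 8444 ± 837 CPM in vehicle_Nutlin, against 446 ± 58.0 CPM in AG120 and 379.8 ± 13.1 CPM in vehicle. Of 6 biliary markers, 5 stood over 1 CPM in every group, with KRT19 and KRT7 the most abundant, while CFTR was near 0. Summed fibroblast markers reached 2.41 to 5.29 CPM in Nutlin libraries and 36.0 to 43.4 CPM without Nutlin, with DCN and LUM at 0 counts in every group, and hepatocyte sums were 3.11 to 7.52 CPM with Nutlin and 5.06 to 8.27 CPM without. Endothelial and leukocyte sums were at most 1.06 CPM. The vehicle_Nutlin libraries were the least alike. In them, 7.58% of genes in replicate 1, 11.8% in replicate 2 and a still higher share in replicate 3 lay over 2-fold from the other libraries of the group, against 1.77% to 4.64% in the other 9. The deviation of genes from their group mean also went with transcript length (Spearman's rho across 12317 genes, which are not independent replicates) at 0.356, 0.206 and -0.349 in vehicle_Nutlin replicates 1, 2 and 3 and at 0.443, -0.281 and -0.416 in AG120 replicates 1, 2 and 3, against -0.0783 to 0.0956 in the other groups. The part of this spread in the results below was not tested; results with and without these libraries are given where the call differs.

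Levels between genes were compared per kilobase of exon. In AG120_Nutlin cells the order was GPX4 (181 ± 4.09 CPM per kb), GSR (143 ± 2.78), TXNRD1 (131 ± 2.04), NQO1 (58.6 ± 1.85), GSS (36.6 ± 0.406), GCLM (25.1 ± 0.928), GCLC (14.6 ± 0.378), GPX2 (7.15 ± 0.836), SRXN1 (1.14 ± 0.114) and SLC7A11 (0.433 ± 0.0924 CPM per kb). In vehicle cells GPX4 (188 ± 7.37 CPM per kb) and TXNRD1 (185 ± 6.70 CPM per kb) stood highest and did not differ beyond their spread on this length. GSR followed at 75.7 ± 3.53, then NQO1 at 32.8 ± 1.62, GSS at 27.1 ± 1.15, GCLM at 17.0 ± 0.171 and GCLC at 8.32 ± 0.137 CPM per kb. The lowest were GPX2 at 2.90 ± 0.471, SLC7A11 at 1.31 ± 0.0901 and SRXN1 at 1.01 ± 0.292 CPM per kb, the last pair overlapping in their libraries. GSR thus stood above TXNRD1 and SRXN1 above SLC7A11 in AG120_Nutlin, the reverse of vehicle. Parts of the order depended on the length used. With the longest transcript in place of all exons, TXNRD1 (163 CPM per kb) stood above GSR (143 CPM per kb) and GCLC (26.6) above GCLM (25.3) in AG120_Nutlin. On that length, GSS (39.2 CPM per kb) stood above NQO1 (35.2) in vehicle, and GPX4 (294 CPM per kb) stood clear of TXNRD1 (231) there.

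**Figure D1:**
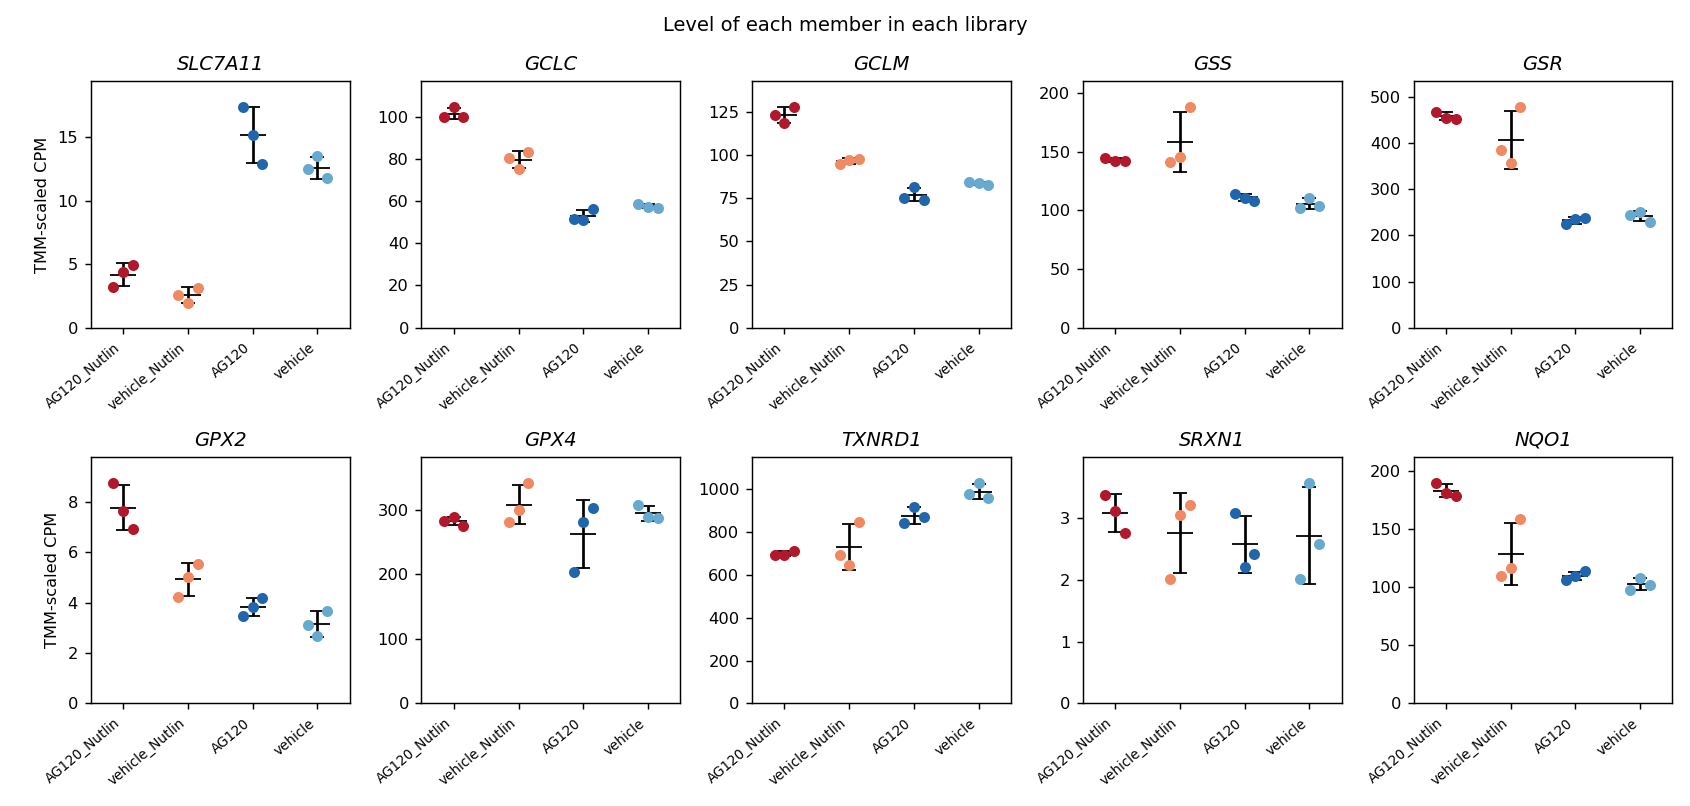
Levels of the 10 members in CPM, scaled by trimmed mean of M values, with 1 panel per gene and its own axis from 0. Points are libraries, and bars give the mean and SD of the 3 libraries in AG120_Nutlin, vehicle_Nutlin, AG120 and vehicle; SLC7A11 is low in both Nutlin groups (1.92 to 4.94 CPM), while GCLC, GCLM and GSR are high in them.

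Nutlin was compared with its absence in AG-120 cells and in vehicle cells. In both, the members split: 6 of 10 rose (GCLC, GCLM, GSS, GSR, GPX2 and NQO1), SLC7A11 and TXNRD1 fell, and GPX4 and SRXN1 did not pass the test. The threshold for a call was an adjusted p of 0.05 in edgeR's quasi-likelihood test, with Benjamini-Hochberg adjustment over all 15691 genes. In AG-120 cells 27.0% of all genes were called higher and 28.8% lower (55.7% either way), and in vehicle cells 26.8% higher and 27.1% lower (53.9% either way). So 8 of 10 members called in each is to be read against those shares. The median member differed by 0.52 on the log2 scale in AG-120 cells, against 0.00 over all genes, and by 0.27 in vehicle cells, against -0.02 over all genes. For 8 members in each setting the libraries of both groups did not overlap, 6 of them higher and 2 lower. That held for 70.2% of all genes in AG-120 cells (35.1% in each direction) and for 59.3% in vehicle cells (28.3% higher, 30.9% lower). The comparisons in AG-120 and in vehicle cells share no library.

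SLC7A11, the cystine importer at the head of the pathway (hg19 chr4:139085251-139163503), showed the widest change of the 10. It stood at 3.20, 4.39 and 4.94 CPM in AG120_Nutlin replicates 1, 2 and 3 and at 2.59, 1.92 and 3.16 CPM in vehicle_Nutlin, against 17.4, 15.2 and 12.9 CPM in AG120 and 12.5, 13.5 and 11.8 CPM in vehicle. Every Nutlin library lay below every library without it, and the behaviour of SLC7A11 as a gene that p53 represses is known from earlier work. The log2 change with Nutlin was -1.86 ± 0.198 (SE) in AG-120 cells (adjusted p = 3.96e-06) and -2.28 ± 0.206 in vehicle cells (adjusted p = 9.58e-07), levels 3.63-fold lower with Nutlin in AG-120 cells and 4.86-fold lower in vehicle cells. The counts come from whole cultures, so fewer cells with a transcript and less of it per cell cannot be told apart. The antisense gene SLC7A11-AS1, which overlaps it, held at most 3 counts in any library.

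Both subunits of glutamate-cysteine ligase rose with Nutlin. GCLC, the catalytic subunit (chr6:53362139-53481768), measured 99.8, 104 and 99.7 CPM in AG120_Nutlin and 80.6, 75.1 and 83.2 CPM in vehicle_Nutlin, against 51.6, 50.9 and 56.2 CPM in AG120 and 58.7, 57.2 and 56.9 CPM in vehicle. The AG120_Nutlin libraries stood above vehicle_Nutlin, and these above all 6 libraries without Nutlin, with no overlap. Its log2 change with Nutlin was 0.94 ± 0.0816 in AG-120 cells (adjusted p = 5.99e-07) and 0.47 ± 0.0812 in vehicle cells (adjusted p = 3.18e-04).

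GCLM, the modifier subunit that raises the activity of the catalytic one (chr1:94350761-94374966), measured 123, 118 and 127 CPM in AG120_Nutlin and 94.6, 97.2 and 97.8 CPM in vehicle_Nutlin, against 75.3, 81.3 and 74.1 CPM in AG120 and 84.4, 83.6 and 82.7 CPM in vehicle. The order of the groups was that of GCLC, again without overlap between any pair of groups. Nutlin raised it by 0.68 ± 0.0772 on the log2 scale in AG-120 cells (adjusted p = 7.46e-06) and by 0.21 ± 0.0769 in vehicle cells (adjusted p = 0.0359). In vehicle cells the call was lost without any 1 of 6 libraries (AG120_Nutlin 1 or 3, vehicle_Nutlin 2, or vehicle 1, 2 or 3), with adjusted p between 0.0535 and 0.0893. The ratio of GCLC to GCLM counts, which no scaling touches and which was chosen after its values were seen, was 0.824 ± 0.0510 in AG120_Nutlin and 0.825 ± 0.0453 in vehicle_Nutlin, against 0.690 ± 0.0663 in AG120 and 0.689 ± 0.00568 in vehicle.

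GSS, which adds glycine to complete glutathione (chr20:33516236-33543620), stood at 145, 142 and 142 CPM in AG120_Nutlin and 142, 145 and 188 CPM in vehicle_Nutlin, against 114, 110.4 and 108 CPM in AG120 and 102, 111 and 104 CPM in vehicle. All Nutlin libraries lay above all others, and vehicle_Nutlin replicate 3 stood alone at the top. The log2 change with Nutlin was 0.36 ± 0.105 in AG-120 cells (adjusted p = 0.0101) and 0.58 ± 0.105 in vehicle cells (adjusted p = 4.48e-04).

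GSR, which regenerates reduced glutathione, measured 468, 454 and 451 CPM in AG120_Nutlin and 384, 357 and 477 CPM in vehicle_Nutlin, against 224, 235 and 237 CPM in AG120 and 244, 252 and 229 CPM in vehicle. The Nutlin libraries did not overlap the rest. It rose by 0.98 ± 0.107 on the log2 scale in AG-120 cells (adjusted p = 4.90e-06) and by 0.75 ± 0.106 in vehicle cells (adjusted p = 5.83e-05).

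The glutathione peroxidases did not move alike. GPX2, a peroxidase best known from the epithelium of the gut (chr14:65405870-65409531), was a low gene at 8.74, 7.64 and 6.94 CPM in AG120_Nutlin and 4.24, 5.03 and 5.51 CPM in vehicle_Nutlin, against 3.47, 3.83 and 4.17 CPM in AG120 and 3.11, 2.66 and 3.68 CPM in vehicle. AG120_Nutlin stood clear of all other libraries, and vehicle_Nutlin clear of vehicle. Its log2 change with Nutlin was 1.03 ± 0.177 in AG-120 cells (adjusted p = 2.73e-04) and 0.64 ± 0.180 in vehicle cells (adjusted p = 0.00951). The vehicle call was lost under limma voom (0.52, adjusted p = 0.0542) and without vehicle_Nutlin replicates 2 and 3 and AG120 replicate 1 together (0.39, adjusted p = 0.179). GPX2 lies within the spans of CHURC1 and FNTB, and whether counting used strand is not given in the sources used here. Both neighbours were higher with Nutlin too. CHURC1 rose by 0.33 in AG-120 cells and by 0.55 in vehicle cells on the log2 scale, and FNTB by 1.00 and 0.85 in that order. With AG-120 in the presence of Nutlin, CHURC1 was at -0.16 and FNTB at -0.15, and neither was called. The part of these neighbours in the GPX2 count was not tested.

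GPX4, the selenoprotein that reduces lipid peroxides and guards against ferroptosis (chr19:1103936-1106787), measured 283, 288 and 275 CPM in AG120_Nutlin and 282, 300.3 and 341 CPM in vehicle_Nutlin, against 204, 281 and 303 CPM in AG120 and 308, 288 and 287 CPM in vehicle. The groups overlapped, and AG120 replicate 1 was the low library. Its log2 change with Nutlin was 0.10 ± 0.131 in AG-120 cells (95% interval -0.18 to 0.39, adjusted p = 0.532) and 0.06 ± 0.131 in vehicle cells (-0.22 to 0.35, adjusted p = 0.703).

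TXNRD1, the selenoprotein reductase of the thioredoxin system (chr12:104609557-104744061), was the most counted member. It stood at 694, 692 and 712 CPM in AG120_Nutlin and 694, 648 and 849.6 CPM in vehicle_Nutlin, against 843, 919.7 and 869.7 CPM in AG120 and 977, 1029 and 960.4 CPM in vehicle. Nutlin libraries lay below their own controls in both settings, although vehicle_Nutlin replicate 3 reached the range of AG120. It fell by 0.33 on the log2 scale in AG-120 cells (SE 0.107, adjusted p = 0.0191) and by 0.44 in vehicle cells (SE 0.107, adjusted p = 0.00382). The AG-120 call was lost without AG120_Nutlin replicate 1 or 2 or AG120 replicate 2, with adjusted p between 0.0601 and 0.0770. The gene's span holds the ribosomal pseudogene RPL18AP3, counted separately, at 415 ± 12.1 CPM in AG120_Nutlin, 702 ± 200 CPM in vehicle_Nutlin, 532 ± 42.8 CPM in AG120 and 521 ± 40.3 CPM in vehicle. The TXNRD1 values are uncertain by any reads these entries share, and that was not tested. TXNRD1 made up 34.4% to 35.6% of the summed CPM of the 10 members in AG120_Nutlin and 37.0% to 38.7% in vehicle_Nutlin, against 48.8% to 51.3% in AG120 and 51.7% to 52.8% in vehicle. The ratio of TXNRD1 to GSR counts, the thioredoxin against the glutathione reductase and also chosen after the values were seen, was 1.53 ± 0.0466 in AG120_Nutlin and 1.80 ± 0.0161 in vehicle_Nutlin, against 3.78 ± 0.124 in AG120 and 4.10 ± 0.0892 in vehicle.

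SRXN1 (chr20:627259-634014) was near the limit of what these libraries resolve, with 38 to 75 counts each. It stood at 3.38, 3.11 and 2.76 CPM in AG120_Nutlin and 2.01, 3.06 and 3.21 CPM in vehicle_Nutlin, against 3.09, 2.21 and 2.43 CPM in AG120 and 2.01, 3.56 and 2.58 CPM in vehicle. The vehicle and vehicle_Nutlin libraries overlapped, and so did those of AG120 and AG120_Nutlin. The 95% interval of its log2 change with Nutlin ran from -0.30 to 0.82 in AG-120 cells (adjusted p = 0.428) and from -0.53 to 0.59 in vehicle cells (adjusted p = 0.928), so the interval for vehicle_Nutlin over vehicle reached up to a 1.51-fold higher level.

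NQO1, the quinone reductase widely read as the standard NRF2 target (chr16:69740899-69760854), measured 189.6, 181 and 179 CPM in AG120_Nutlin and 109.5, 117 and 159 CPM in vehicle_Nutlin, against 106, 109.5 and 114 CPM in AG120 and 97.7, 108 and 102 CPM in vehicle. AG120_Nutlin lay above every other library; vehicle_Nutlin lay just above vehicle, with replicate 3 apart from the other two. The log2 change with Nutlin was 0.74 ± 0.123 in AG-120 cells (adjusted p = 2.06e-04) and 0.33 ± 0.122 in vehicle cells (adjusted p = 0.0388). The vehicle call was lost without any 1 of 8 libraries (all AG120_Nutlin and all vehicle libraries, AG120 replicate 2 and vehicle_Nutlin replicate 3), with adjusted p between 0.0502 and 0.118, and the change was 0.14 without vehicle_Nutlin replicate 3. It was also lost under limma voom (0.15, adjusted p = 0.107). Without vehicle_Nutlin replicates 2 and 3 and AG120 replicate 1 together, the change was 0.074.

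**Figure D2:**
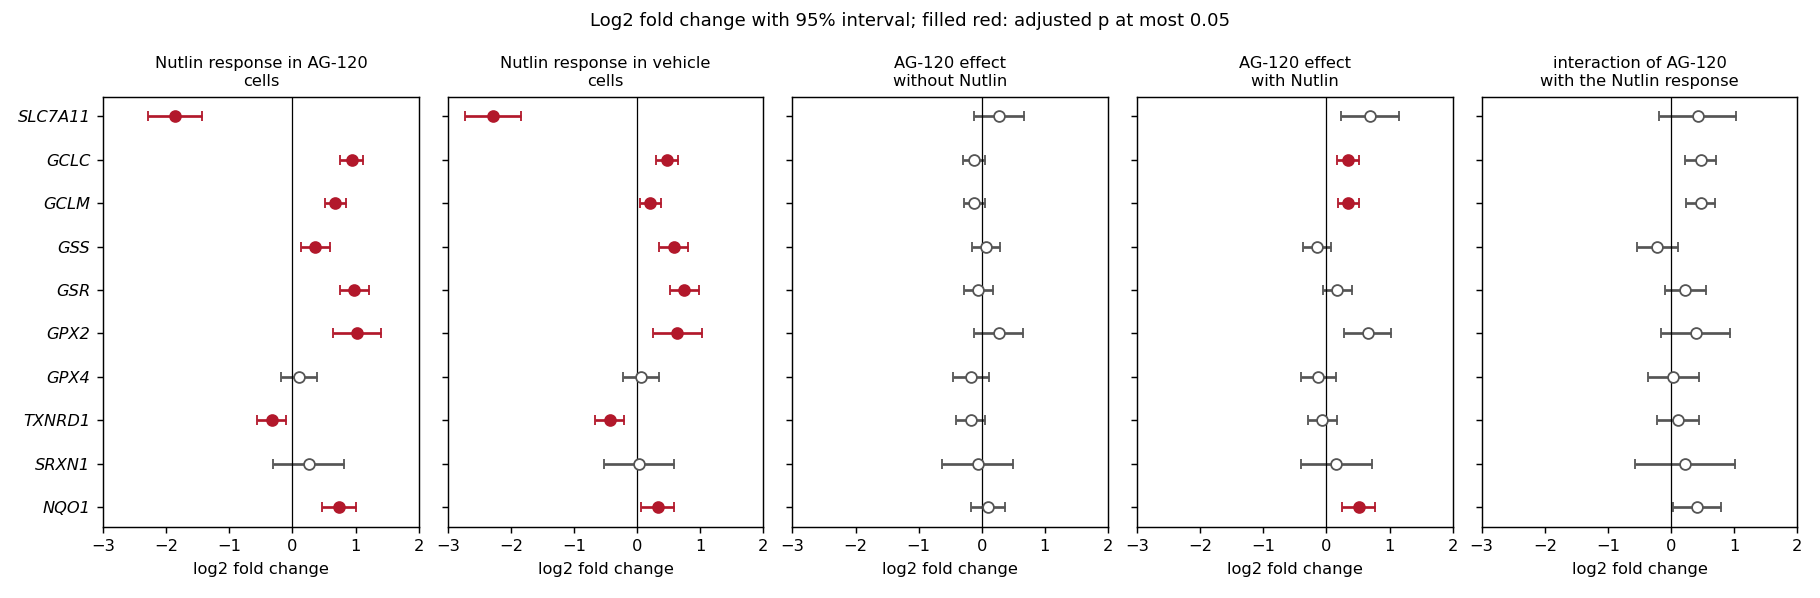
Log2 fold changes of the 10 members in the comparisons of the design, with 95% intervals from edgeR's model; filled points passed an adjusted p of 0.05. GCLC, GCLM and NQO1 are the members called higher with AG-120 in the presence of Nutlin (0.35, 0.35 and 0.51), and none is called without Nutlin.

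No member passed the test for AG-120 in the absence of Nutlin. In AG120 against vehicle, 0 of 10 members passed edgeR's test (adjusted p between 0.724 and 0.972), with log2 changes from -0.17 for TXNRD1 to 0.27 for SLC7A11, and 0 of 10 had an unadjusted p under 0.05. Background was low as well, at 0.0510% of genes (8 genes), and limma voom, DESeq2 and every other alternative also called 0 members. GCLC, GCLM and TXNRD1 were lower in every AG120 library than in every vehicle library, which held for 10.3% of all genes in that direction. Their log2 changes were -0.12 ± 0.0813, -0.12 ± 0.0770 and -0.17 ± 0.107. The 95% interval for GCLC ran from -0.30 to 0.05 and that for GCLM from -0.29 to 0.05.

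With Nutlin present, AG-120 went with higher levels of both glutamate-cysteine ligase subunits and of NQO1. In AG120_Nutlin against vehicle_Nutlin, 3 of 10 members were called higher and 0 lower, against 0.433% of all genes called higher and 1.93% lower (2.36% either way). Means were 101 ± 2.62 CPM in AG120_Nutlin and 79.6 ± 4.11 CPM in vehicle_Nutlin for GCLC, 123 ± 4.55 and 96.6 ± 1.75 CPM for GCLM, and 183 ± 5.77 and 129 ± 26.7 CPM for NQO1 in the same order. The log2 changes were 0.35 ± 0.0809 for GCLC (adjusted p = 0.0457), 0.35 ± 0.0769 for GCLM (adjusted p = 0.0362) and 0.51 ± 0.122 for NQO1 (adjusted p = 0.0494). All 3 sat close to the threshold. The vehicle_Nutlin libraries also enter the Nutlin response in vehicle cells, so these comparisons share samples.

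SLC7A11 and GPX2 had larger log2 differences that did not pass edgeR's test. SLC7A11 differed by 0.69 ± 0.215 (adjusted p = 0.112), at 4.17 ± 0.892 CPM in AG120_Nutlin and 2.56 ± 0.624 CPM in vehicle_Nutlin. GPX2 differed by 0.65 ± 0.174 (adjusted p = 0.0718), at 7.77 ± 0.908 CPM in AG120_Nutlin and 4.93 ± 0.646 CPM in vehicle_Nutlin. GPX2 did pass with DESeq2 (0.64, adjusted p = 0.0304) and with limma voom (0.79, adjusted p = 0.0252), and also in edgeR's test once vehicle_Nutlin replicates 2 and 3 and AG120 replicate 1 were all left out (0.89, adjusted p = 0.0219). With GCLC, GCLM and NQO1 they made 5 of 10 members whose AG120_Nutlin libraries all lay above all vehicle_Nutlin libraries, against 14.2% of all genes in that direction and 28.3% in either. The other 5 overlapped, at log2 0.17 for GSR, 0.16 for SRXN1, -0.06 for TXNRD1, -0.13 for GPX4 and -0.15 for GSS (adjusted p between 0.375 and 0.755). Of these, GSR passed with limma voom (0.27, adjusted p = 0.0127) and in edgeR's test with those 3 libraries left out (0.26, adjusted p = 0.0129).

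These calls depended on single libraries and on the setting. GCLC lost its call without any 1 of 9 libraries (adjusted p between 0.0592 and 0.204), GCLM likewise (0.0548 to 0.184) and NQO1 without any 1 of 10 (0.0683 to 0.180); in every one of these the change stayed above 0. The exceptions for GCLC and GCLM were vehicle_Nutlin replicates 1 and 3 and AG120 replicate 1, and for NQO1 vehicle_Nutlin replicate 3 and AG120 replicate 1. Without vehicle_Nutlin replicate 3, 6 members were called higher, the added ones being SLC7A11 (0.88, adjusted p = 0.0461), GSR (0.30, adjusted p = 0.0230) and GPX2 (0.75, adjusted p = 0.0415). Calls over all genes moved too, from 61 to 1037 as single libraries were left out, against 371 with every library. Replicate 3 of vehicle_Nutlin was the highest of its group for each of the 10 members.

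Whether AG-120 changed the Nutlin response itself was tested by the interaction term, the Nutlin response in AG-120 cells minus that in vehicle cells. It was positive for 9 of 10 members, with a median of 0.31 against -0.01 over all genes, but 0 of 10 passed edgeR's test, beside a background of 0.363% (0.0319% higher). GCLC (0.47 ± 0.115, adjusted p = 0.130) and GCLM (0.47 ± 0.109, adjusted p = 0.112) came nearest, ahead of NQO1 (0.41 ± 0.173, adjusted p = 0.406), and these 3 had an unadjusted p under 0.05, as 11% of all genes did. GSS alone was negative, at -0.22 ± 0.148 (adjusted p = 0.609). DESeq2 called 2 members, GCLC (0.46, adjusted p = 0.0258) and GCLM (0.46, adjusted p = 0.00863). Limma voom with sample quality weights called 4, GCLC, GCLM, GSR (0.31, adjusted p = 0.0352) and NQO1 (0.58, adjusted p = 0.00132). Without vehicle_Nutlin replicate 3, edgeR called 3, GCLC (adjusted p = 0.0216), GCLM (adjusted p = 0.0189) and NQO1 (adjusted p = 0.00412). Over all genes, edgeR called 243 without that library, against 57 with every library. DESeq2 and limma voom likewise called more of all genes than edgeR, with the counts given in the closing section. Leaving out vehicle_Nutlin replicates 2 and 3 and AG120 replicate 1 kept a lone vehicle_Nutlin library. The terms were then 0.45 for GCLC, 0.49 for GCLM, 0.29 for GSR and 0.63 for NQO1.

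**Figure D3:**
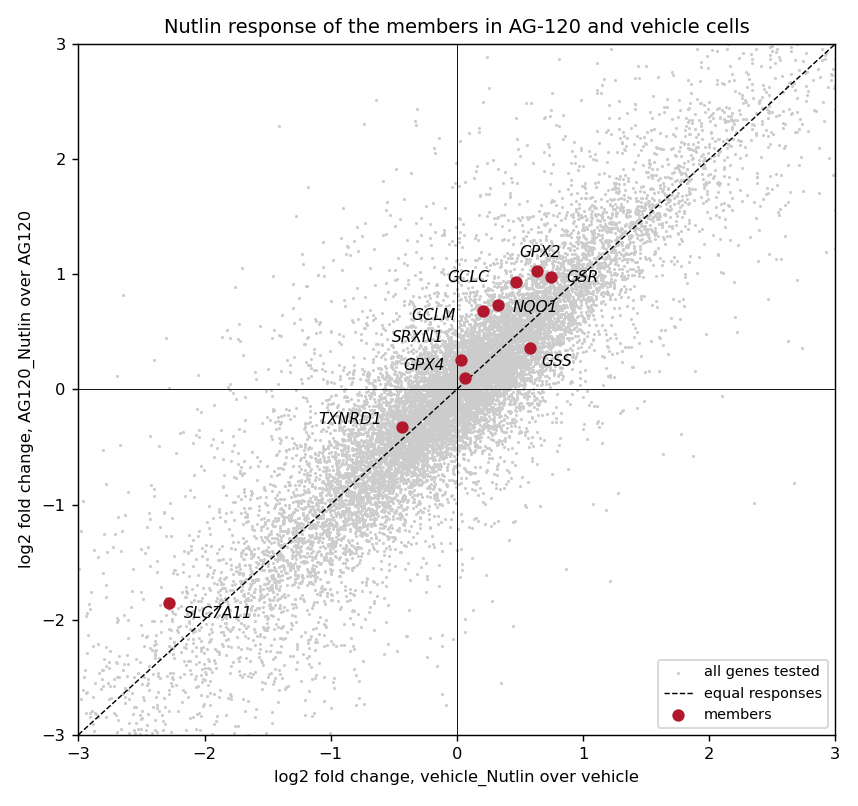
Log2 fold change with Nutlin in AG-120 cells (vertical axis) and in vehicle cells (horizontal axis) for all genes tested (grey) and the 10 members (red), with the line of equal responses; 1035 of 15691 genes lie beyond 3 on either axis and are not drawn. Every member except GSS lies above the line, and SLC7A11 and TXNRD1 lie in the lower left.

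Among the members, the range of the 4 group means was widest for SLC7A11 (2.54 on the log2 scale), GPX2 (1.28) and GSR (0.98), and narrowest for GPX4 (0.24) and SRXN1 (0.26). Likeness of pattern was measured as the root mean square difference of centred log2 CPM over the 12 libraries, so 0 is identical. The nearest pair of members was GCLC and GSR, at 0.13, and GCLC and GCLM differed by 0.15. SLC7A11 was far from all others, TXNRD1 being its nearest at 0.91. Among genes averaging at least 5 CPM, those most like SLC7A11 were HAUS5 (0.27), FAM160A1 (0.28) and LPAR1 (0.28). Those most like GPX2 were HEATR5A (0.19), LPXN (0.19) and PDP1 (0.21), and those most like GSR were RB1 (0.05), BAG1 (0.07) and VAMP3 (0.07).

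The regulators of NRF2 were measured in the same libraries. Of 10 such genes, 5 were called higher and 1 lower with Nutlin in AG-120 cells, and 4 higher and 1 lower in vehicle cells, near the 55.7% and 53.9% of all genes called in either direction in those comparisons. NFE2L2, which encodes NRF2, averaged 161 ± 4.96 CPM in AG120_Nutlin and 152 ± 7.87 CPM in vehicle_Nutlin, against 93.5 ± 13.2 CPM in AG120 and 98.2 ± 1.90 CPM in vehicle. Its log2 change with Nutlin was 0.79 in AG-120 cells (adjusted p = 2.63e-05) and 0.63 in vehicle cells (adjusted p = 1.81e-04). SQSTM1, the autophagy receptor that binds KEAP1, rose by 1.56 in AG-120 cells and by 1.68 in vehicle cells on the log2 scale. MAFG, a small MAF partner of NRF2, rose by 1.63 in AG-120 cells and by 1.19 in vehicle cells. With AG-120 in the presence of Nutlin, 0 of the 10 regulators passed edgeR's test, with 0 called by DESeq2 and 1 by limma voom. Both of these tools also called more of all genes than edgeR, with the counts given in the closing section. An unadjusted p under 0.05 in edgeR's test was held by 1 of the 10 regulators, against 19.5% of all genes. MAFG stood at 0.35 (adjusted p = 0.158), NFE2L1 at 0.31 (0.278) and MAFK at 0.32 (0.435).

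Of 15 other NRF2 targets listed, 14 were testable. Among them, 10 were called higher and 1 lower with Nutlin in AG-120 cells (median 1.70 on the log2 scale), and 9 higher and 4 lower in vehicle cells (median 1.57), against 27.0% of all genes higher and 28.8% lower in AG-120 cells and 26.8% higher and 27.1% lower in vehicle cells. HMOX1, heme oxygenase, averaged 208 ± 3.11 CPM in AG120_Nutlin and 129 ± 3.01 CPM in vehicle_Nutlin, against 8.03 ± 1.54 CPM in AG120 and 9.71 ± 1.20 CPM in vehicle. It was called in the interaction as well (0.96 ± 0.180, adjusted p = 0.0448). AKR1C1, an aldo-keto reductase, averaged 182 ± 5.78 CPM in AG120_Nutlin and 143 ± 33.0 CPM in vehicle_Nutlin, against 6.41 ± 0.580 CPM in AG120 and 4.42 ± 0.928 CPM in vehicle. With AG-120 in the presence of Nutlin, 2 of 14 were called, AKR1B10 (0.85, adjusted p = 0.00505) and HMOX1 (0.69, adjusted p = 0.0131). Of the list, 7 were called without vehicle_Nutlin replicate 3, 4 without AG120 replicate 1 and 1 without any 1 of the AG120_Nutlin libraries. Over all genes, such single omissions gave 61 to 1037 calls, against 371 with every library. UGDH, which makes UDP-glucuronic acid, was at 0.43 (adjusted p = 0.0547).

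The rest of the glutathione cycle had calls in both directions. Of 33 genes listed 30 were testable, and with Nutlin 10 were called higher and 11 lower in AG-120 cells, and 11 higher and 9 lower in vehicle cells. Of all genes, 27.0% were called higher and 28.8% lower in AG-120 cells, and 26.8% higher and 27.1% lower in vehicle cells. GPX1, the most widely expressed glutathione peroxidase, averaged 982 ± 35.8 CPM in AG120_Nutlin and 1087 ± 334 CPM in vehicle_Nutlin, against 213 ± 32.8 CPM in AG120 and 210.5 ± 6.03 CPM in vehicle. GPX8, a peroxidase of the endoplasmic reticulum, fell by 1.43 in AG-120 cells and by 0.84 in vehicle cells on the log2 scale. GGT6, of the gamma-glutamyltransferase family, held 991 counts over the group in AG120_Nutlin and 789 in vehicle_Nutlin, against 13 in AG120 and 5 in vehicle. ABCC2, an exporter of glutathione and its conjugates, was the 1 gene of the list called with AG-120 in the presence of Nutlin (0.41 ± 0.0832, adjusted p = 0.0230), and it stood at 0.52 ± 0.0836 without Nutlin (adjusted p = 0.0539). The list had 0 calls with AG-120 in the presence of Nutlin without any 1 of the AG120_Nutlin libraries or vehicle replicate 1. It had 1 higher and 2 lower without vehicle_Nutlin replicate 2. Over all genes, such single omissions gave 61 to 1037 calls, against 371 with every library.

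Other genes of the thioredoxin and peroxiredoxin systems were compared with AG-120 in the presence of Nutlin. Beside thioredoxins and peroxiredoxins, the list held TXNIP, the reductases TXNRD2 and TXNRD3, and the methionine sulfoxide reductases MSRA, MSRB2 and MSRB3. All 18 listed were tested, and in AG120_Nutlin against vehicle_Nutlin 0 of 18 passed edgeR's test, with 4 called by DESeq2 and 4 by limma voom. Both of these tools also called more of all genes than edgeR, with the counts given in the closing section. An unadjusted p under 0.05 in edgeR's test was held by 8 of 18, against 19.5% of all genes. The 18 log2 differences were below 0 with all libraries, with a median of -0.28 against -0.01 over all genes. This depended in part on vehicle_Nutlin replicate 3. Without that library 16 of 18 were below 0, MSRB2 and PRDX5 were above, and the median was -0.15. Limma voom also put those 2 genes above 0. Calls numbered 2 without vehicle_Nutlin replicate 3, 4 without vehicle_Nutlin replicate 1, 2 without vehicle_Nutlin replicate 2 and 2 without AG120 replicate 1. All of these were lower, and 0 were called without any other library. Over all genes, such single omissions gave 61 calls (without AG120_Nutlin replicate 2) to 1037 (without vehicle_Nutlin replicate 1), against 371 with every library. With all libraries, the lowest adjusted p values in edgeR's test were 0.0516 for NXN (-0.37), 0.0614 for TXNIP (-0.46) and 0.0642 for PRDX4 (-0.72). With Nutlin, 3 were called higher and 7 lower in AG-120 cells, and 5 higher and 3 lower in vehicle cells, against 55.7% and 53.9% of all genes called in either direction. NXN, nucleoredoxin, fell by 1.05 in AG-120 cells and by 0.60 in vehicle cells on the log2 scale, and TXN2, the mitochondrial thioredoxin, rose by 0.40 in AG-120 cells and by 0.73 in vehicle cells.

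NADPH is the reductant that GSR, TXNRD1 and NQO1 use. Genes of NADPH supply or of the pentose phosphate pathway also had calls in both directions. Of 12 listed 11 were testable; with Nutlin 3 were called higher and 4 lower in AG-120 cells, and 4 higher and 4 lower in vehicle cells, against 55.7% and 53.9% of all genes in either direction. TKT, a transketolase of the pentose phosphate pathway, rose with Nutlin by 0.73 in AG-120 cells and by 0.91 in vehicle cells on the log2 scale. TALDO1, also of that pathway, fell by 0.75 in AG-120 cells and by 0.51 in vehicle cells, and NNT, the mitochondrial transhydrogenase, fell by 0.55 in AG-120 cells and by 0.63 in vehicle cells.

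GPX4 and TXNRD1 are selenoproteins, and GPX2 is too. Of 8 genes of selenoprotein synthesis, 5 were called higher and 2 lower with Nutlin in AG-120 cells, and 4 higher and 2 lower in vehicle cells, against 55.7% and 53.9% of all genes in either direction. EEFSEC, the elongation factor that delivers selenocysteine, rose by 1.08 in AG-120 cells and by 0.66 in vehicle cells on the log2 scale, and SEPHS1, a selenophosphate synthetase homologue, fell by 1.05 in AG-120 cells and by 0.99 in vehicle cells. Of 11 genes of lipid peroxide handling 10 were testable, and 6 were called higher and 1 lower in each setting, against 27.0% of all genes higher and 28.8% lower in AG-120 cells and 26.8% higher and 27.1% lower in vehicle cells. FTH1, ferritin heavy chain, rose by 2.09 in AG-120 cells and by 1.84 in vehicle cells on the log2 scale. AIFM2 (FSP1), a ferroptosis suppressor that works beside GPX4, rose by 0.89 in AG-120 cells and by 0.51 in vehicle cells, and LPCAT3, which puts polyunsaturated chains into phospholipids, rose by 0.73 in AG-120 cells and by 0.86 in vehicle cells. ALOX5, a lipoxygenase, held 722 counts over the group in AG120_Nutlin and 467 in vehicle_Nutlin, against 17 in AG120 and 11 in vehicle. With AG-120 in the presence of Nutlin, edgeR called 0 of 8 genes of selenoprotein synthesis (0 called by DESeq2 and 0 by limma voom). It also called 0 of 10 of lipid peroxide handling (1 called by DESeq2 and 2 by voom). DESeq2 and voom also called more of all genes than edgeR, with the counts given in the closing section. An unadjusted p under 0.05 in edgeR's test was held by 2 of 8 and by 2 of 10, against 19.5% of all genes.

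**Figure D4:**
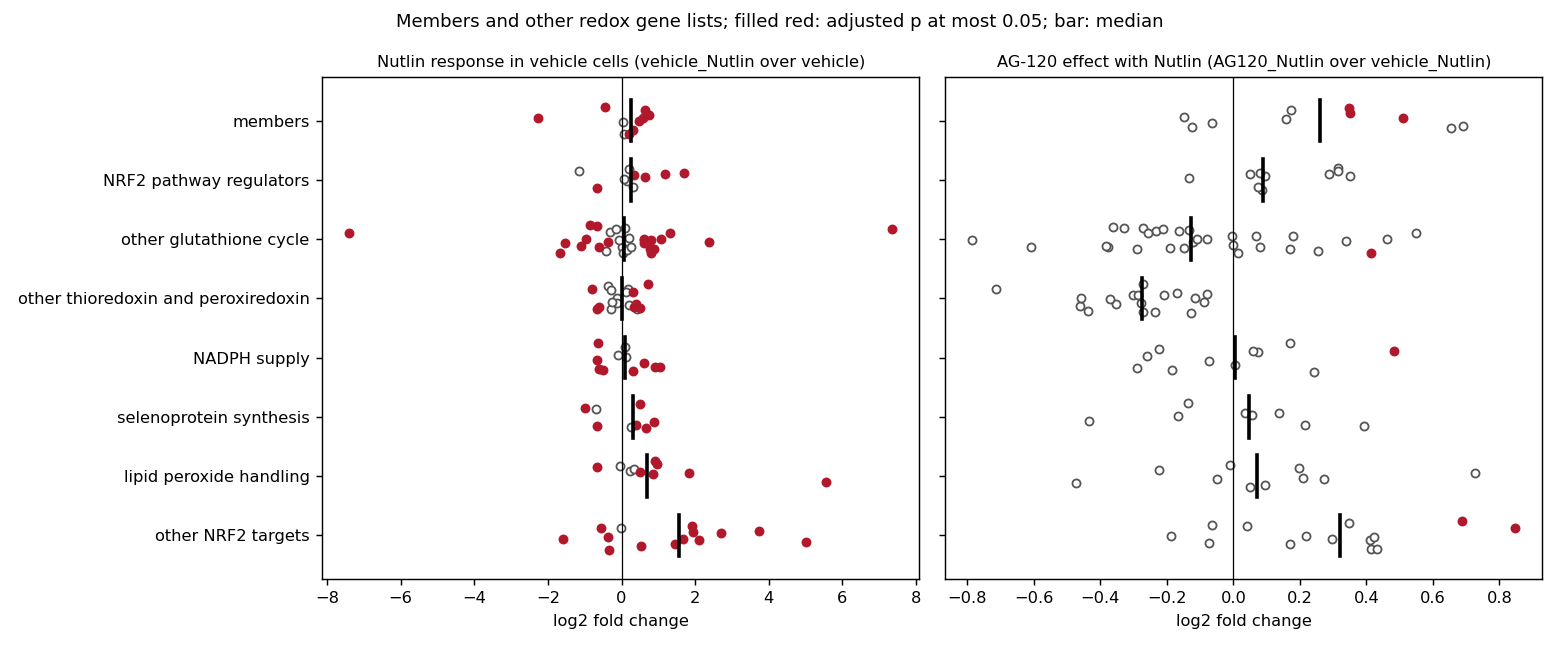
Log2 fold changes of the members and of each context list in vehicle_Nutlin over vehicle (left) and AG120_Nutlin over vehicle_Nutlin (right). Each point is a gene, filled red where edgeR's adjusted p was at most 0.05, and bars are medians; 3 members, 2 other NRF2 targets and ABCC2 are among the points filled on the right, and the lowest point on the left, GGT5, had 0 counts in both Nutlin groups, so that its fitted value is no bound.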

How the data were processed

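RNA of RBE cells was captured by poly(A) and sequenced as paired reads in 12 libraries, per the labels' protocols. The authors deposited unnormalized read counts for each gene symbol, per the file headers. The submitters' processing notes name Partek, STAR, HTSeq, DESeq2 and hg19; versions, roles and the strand setting are not given in the sources used here.

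The analysis ran in R 4.3.3 (edgeR 4.0.16, limma 3.58.1). Low genes were removed with filterByExpr, scaling was by TMM (trimmed mean of M values), and all 12 libraries entered a single quasi-likelihood model with 4 group terms. For each of 5 comparisons, glmQLFTest p-values were adjusted by Benjamini-Hochberg over 15691 genes. Errors of changes are SE from the F statistic, and levels are TMM-scaled CPM with SD and n = 3. Library totals had a median of 19221201 counts. The script was also run on simulated counts with changes set in vehicle_Nutlin only. That run did not include the deviations tied to transcript length, so it does not bear on the AG-120 calls.

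Per-kb levels use exon lengths of GENCODE v29, and gene positions are hg19 from the table. Named genes are all members, up to 3 genes per context list with the smallest adjusted p in each of 2 comparisons (Nutlin in vehicle cells, AG-120 with Nutlin), and 3 genes most like each of the 3 most variable members; neighbours and ratios were added after their values were seen. The members and lists were chosen with earlier results of these data known. Alternatives were DESeq2 1.42.0, limma voom, other scalings and filters, the replicate block, fewer groups and left-out libraries. One gene that the naming rule picks is not reported here.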

Additional observations from a re-analysis of the deposited data

How the results depend on the processing

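Across 21 alternative settings, 926 of 1040 member values kept their direction and side of the threshold and 24 reversed. With Nutlin, SLC7A11, GCLC, GCLM, GSS, GSR, GPX2 and NQO1 kept their calls in AG-120 cells in all 21, and so did SLC7A11, GCLC, GSS, GSR and TXNRD1 in vehicle cells. TXNRD1 was called in 18 of 21 in AG-120 cells. In vehicle cells GCLM was called in 11, NQO1 in 8 and GPX2 in 19 of 21. With AG-120 in the presence of Nutlin, GCLC was called in 7 (adjusted p 0.00435 to 0.220), GCLM in 8 (9.93e-04 to 0.209) and NQO1 in 7 (7.89e-07 to 0.252), all with positive changes.

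Members called higher in that comparison numbered 0 with DESeq2 size factors, 1 with library totals, 4 with DESeq2, 5 with limma voom, 1 with no filter, 0 with the replicate block, 0 with only the groups compared and 5 without the 3 libraries that stood apart (vehicle_Nutlin 2 and 3, AG120 1; the lone vehicle_Nutlin library is then assumed to vary like the rest). All genes called numbered 903 with DESeq2, 979 with voom, 1272 with no filter, 211 with the block, 15 with only the groups compared and 1374 without those libraries, against 371. For AG-120 without Nutlin they were 108, 919, 104, 4, 29 and 908 in the same order, and 13 with a filter of 1 CPM in 3 libraries, against 8. For the interaction they were 223 with DESeq2, 433 with voom, 283 with no filter, 32 with the block and 637 without those libraries, against 57; members called were 2, 4 and 4 with DESeq2, voom and without those libraries, against 0. The cause of these moves was not tested.

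Leaving out 1 library at a time gave 7665 to 10311 genes, 6 members higher and 1 to 2 lower with Nutlin in AG-120 cells, and 7283 to 9348 genes, 4 to 6 members higher and 2 lower in vehicle cells. It gave 1 (without vehicle 3) to 241 genes (without vehicle_Nutlin 3) for AG-120 without Nutlin, with 0 members. With Nutlin it gave 61 (without AG120_Nutlin 2) to 1037 genes (without vehicle_Nutlin 1) and 0 to 6 members, and for the interaction 23 (without vehicle 3) to 243 genes (without vehicle_Nutlin 3) and 0 to 3 members.

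Reversed values were all of changes that were not called. For GPX4 with Nutlin in vehicle cells they were -0.024 (totals), -0.034 (voom) and -0.084 (without the 3 libraries), with -0.023 (without vehicle_Nutlin 3) to 0.13 over single libraries left out; in AG-120 cells they were -0.0032 (voom) and -0.060 (without the 3), with -0.053 (without AG120 1) to 0.22. For SRXN1 in vehicle cells they were -0.058 (totals), -0.18 (voom) and -0.44 (without the 3), with -0.14 (without vehicle 1) to 0.27. AG-120 effects of SRXN1 ran from -0.24 to 0.16 (without vehicle 2) without Nutlin and from -0.023 (without vehicle_Nutlin 1) to 0.29 with it. With Nutlin, TXNRD1 was at 0.025 (voom) and 0.022 (without the 3), with -0.14 to 0.060 (without vehicle_Nutlin 3), and GSS and GPX4 were at 0.023 and 0.014 without the 3. Interactions ran from -0.12 (without AG120 1) to 0.15 for GPX4 and from -0.0038 (without vehicle 2) to 0.40 for SRXN1.

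Same-numbered libraries did not deviate together (1 of 18 pairs correlated over 0.1, range -0.224 to 0.116), so replicate numbers were not taken as pairs. With the replicate block, 8529 genes, 6 members higher and 2 lower were called with Nutlin in AG-120 cells, and 8211 genes, 5 members higher and 2 lower in vehicle cells. Depth limits SRXN1 (38 to 75 counts), GPX2 (47 to 155) and SLC7A11 with Nutlin (32 to 89).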
